A study of Solanum lycopersicum with 15 samples.

Results

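Transcripts of 6 enzymes of suberin biosynthesis were followed through hairy roots of tomato with mutations in *SlSCZ* or *SlEXO1*. The enzymes were chosen by gene identity, whatever their values: *SlCYP86A1* (Solyc06g076800), *SlCYP86B1* (Solyc02g014730), *SlGPAT4* (Solyc01g094700), *SlGPAT5* (Solyc04g011600), *SlASFT* (Solyc03g097500) and the fatty acyl reductase *SlFAR3A* (Solyc06g074390). They are 6 of the 34688 genes in the table of counts. All of the roots were of the cultivar M82 and arose after infection with *Rhizobium rhizogenes*. The edited groups were *slscz-hr12*, *slscz-hr5*, *slexo1-hr7* and *slexo1-hr6*, and the reference was the wild type, whose roots had been transformed with a strain that carried no vector. Each group had 3 libraries, so each mutant genotype had 6 and the series 15. Each mutant group is 1 hairy root line with its own CRISPR-Cas9 alleles, and each library pooled several root tips. *slscz-hr12* and *slscz-hr5* carry deletions that reach from exon 1 into exon 2 of *SlSCZ*, and *slexo1-hr7* and *slexo1-hr6* carry mutations in exon 1 of *SlEXO1*. The study asked which transcripts depend on these 2 transcription factors of the root.

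Suberin is a polyester of fatty acids, glycerol and ferulate that is laid down between the plasma membrane and the primary wall, and it limits the passage of water and solutes. In tomato roots it is known mainly from the exodermis, the outermost cortical layer, rather than the endodermis. The monomers are made in steps: cytochromes P450 hydroxylate the fatty acid chain at its end, acyltransferases join it to glycerol, a feruloyl transferase adds the aromatic part, and reductases release fatty alcohols.

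The mutant lines are defined by the guides that directed the edits, 3 for each gene. They are printed because they distinguish the groups: *slscz* roots were made with the first set, *slexo1* roots with the second and wild-type roots with neither. Each is given 5′ to 3′ in lower case, and no base is marked. Sequences of the enzymes themselves were not used here.
*SlSCZ* (Solyc04g078770) guide 1: tattgtttcttggggtgaag
*SlSCZ* guide 2: cattcatatcatacgggttc
*SlSCZ* guide 3: acccgagtaattataacccg
*SlEXO1* (Solyc09g011120) guide 1: gcttttgctgaagatgcagc
*SlEXO1* guide 2: gagcacttggagggtgtata
*SlEXO1* guide 3: tgcctctggggttccaatta

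The libraries were read from the 3′ ends of transcripts and held between 2726538 and 8942819 counts, the largest being wild-type library 3. Libraries are named here by the numbers 2 to 4 that the table gives them. Where the reads of the edited genes lie relative to the edits was not examined, so their counts do not check the edits. *SlSCZ* had between 18 and 31 counts in *slscz* libraries and between 15 and 53 in wild type, and *SlEXO1* between 18 and 27 in *slexo1* libraries and between 10 and 21 in wild type. Neither gene was called in its own mutant (adjusted p = 0.735 for *SlSCZ* and 0.383 for *SlEXO1*, limma-voom).

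As a group, the enzymes were represented by few reads. All 6 together took between 28 and 79 counts in *slscz* libraries, between 41 and 172 in *slexo1* libraries and between 11 and 20 in wild-type libraries. In CPM (counts per 1000000 counts of the library after TMM scaling), the sum was 8.16 to 19.0 in *slscz*, 6.54 to 42.6 in *slexo1* and 1.31 to 6.14 in wild type. Every mutant library thus lay above every wild-type library in the sum. A single count was worth between 0.119 and 0.384 CPM, depending on the library, and all deposited counts of the enzymes were exact whole numbers, with no tolerance allowed. In whole roots, more suberizing cells and more RNA per cell cannot be told apart.

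Only *SlGPAT4*, *SlASFT* and *SlCYP86A1* passed the filter on low counts that left 16189 genes for testing. The other 3 enzymes are given by their counts. The filter asks for enough counts in at least some libraries, and all 3 enzymes passed it through the mutants, so the passing of these enzymes is no evidence of a difference. A gene was called where its Benjamini-Hochberg adjusted p over all tested genes was at most 0.05 and its change at least 1.3-fold. Of all tested genes, 6.84% were called higher in *slscz* and 3.89% in *slexo1*, and in 9.3% and 7.18% every library of the mutant lay above every wild-type library.

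**Figure D1:**
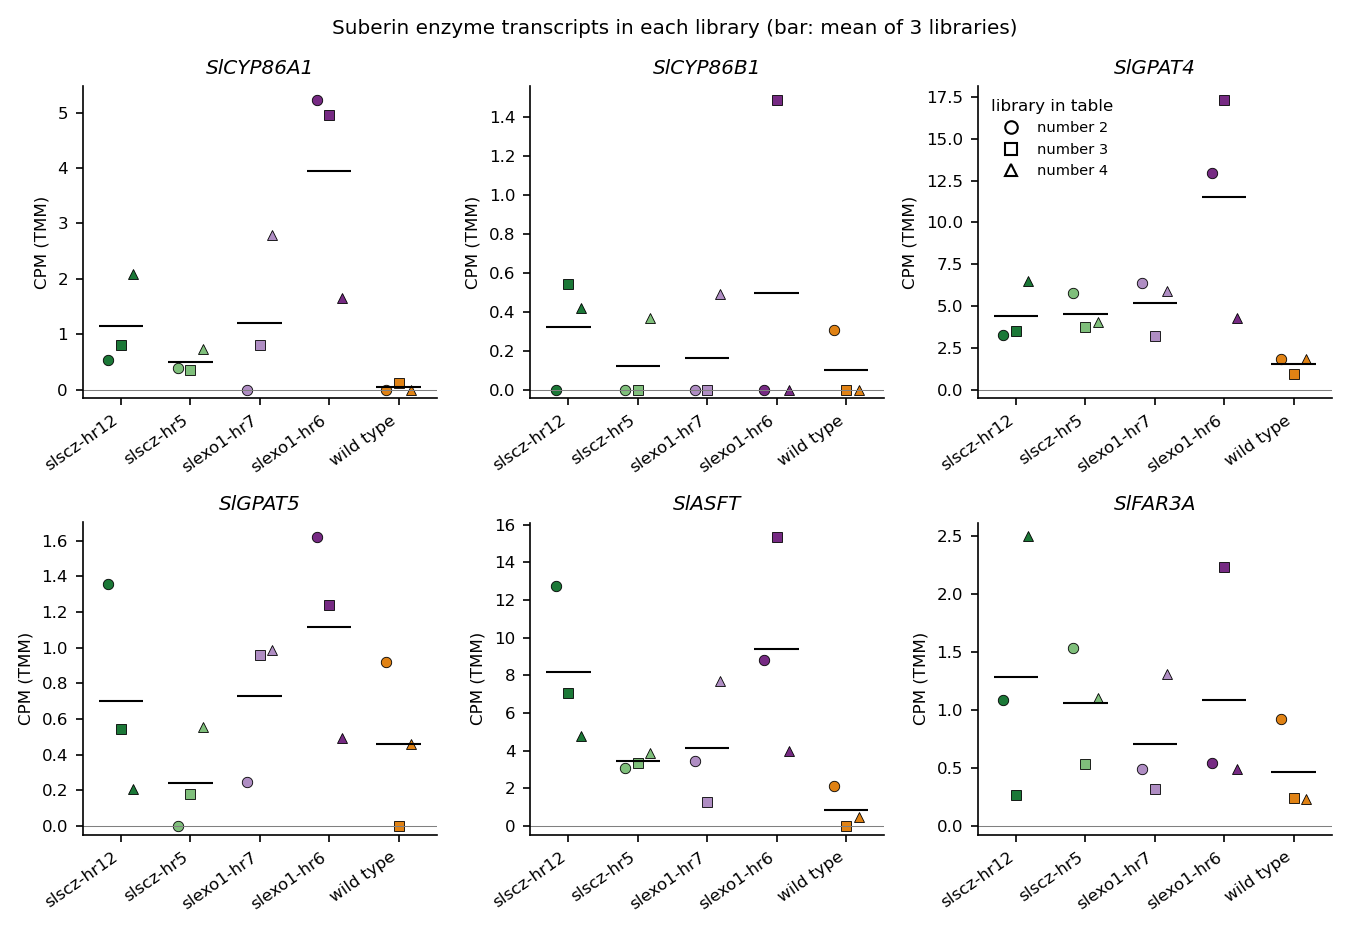
Level of each of the 6 enzymes in each of the 15 libraries, in CPM after TMM scaling on linear axes with a separate scale for each enzyme. Symbols give the number of the library in the table, horizontal bars the mean of 3 libraries. *SlGPAT4* lay between 3.19 and 17.3 CPM in the mutants and between 0.955 and 1.85 CPM in wild type, whereas the *SlGPAT5* and *SlCYP86B1* points of mutants and wild type overlapped.

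*SlGPAT4* was higher in every mutant library than in any wild-type library. In Arabidopsis, GPAT4 is a glycerol-3-phosphate acyltransferase that joins fatty acids to glycerol. It stood at 3.26, 3.53 and 6.47 CPM in *slscz-hr12* libraries 2, 3 and 4, and at 5.76, 3.73 and 4.06 CPM in *slscz-hr5*. The *slexo1-hr7* libraries had 6.40, 3.19 and 5.91 CPM and the *slexo1-hr6* libraries 13.0, 17.3 and 4.29 CPM. The wild-type libraries had 1.84, 0.955 and 1.85 CPM, from 6, 8 and 8 counts. Both highest values belonged to *slexo1-hr6*, while its library 4 lay within the range of the other mutant lines.

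By genotype, *SlGPAT4* averaged 8.35 ± 5.57 CPM in *slexo1* (SD, n = 6) and 1.55 ± 0.514 CPM in wild type (SD, n = 3). The fitted log2 fold change was 2.25 with a standard error of 0.63 (adjusted p = 0.0268, limma-voom), and the gene was called. In *slscz* it averaged 4.47 ± 1.32 CPM (SD, n = 6), with a log2 fold change of 1.64 and a standard error of 0.66. That change was not called by limma-voom (adjusted p = 0.0967), although the 6 *slscz* libraries did not overlap with wild type. edgeR's quasi-likelihood test put it at an adjusted p of 0.0480 and DESeq2 at 0.0182, and both called it, as did limma-voom without *slexo1-hr6* library 3 (0.0432). The call in *slexo1* ended when any 1 of the 3 wild-type libraries was left out: the adjusted p was 0.0696 without library 2, 0.254 without library 3 and 0.0728 without library 4, with log2 fold changes of 2.38, 1.74 and 2.42.

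*SlASFT* showed the same division between mutants and wild type, with 1 exception. In Arabidopsis, ASFT transfers ferulate from its coenzyme A ester to hydroxylated fatty acids. It had 12.8, 7.06 and 4.80 CPM in *slscz-hr12* libraries 2, 3 and 4 and 3.07, 3.37 and 3.87 CPM in *slscz-hr5*. The *slexo1-hr7* libraries held 3.45, 1.28 and 7.71 CPM and the *slexo1-hr6* libraries 8.82, 15.4 and 3.96 CPM. Wild type had 2.15, 0 and 0.462 CPM, from 7, 0 and 2 counts. All 6 *slscz* libraries and 5 of the 6 *slexo1* libraries lay above wild type, and *slexo1-hr7* library 3 lay below wild-type library 2. The wild-type value of 0 came from the deepest library of the series, in which 3 counts would be 0.358 CPM.

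*SlASFT* averaged 5.82 ± 3.69 CPM in *slscz* (SD, n = 6) and 0.870 ± 1.13 CPM in wild type (SD, n = 3). It was called in *slscz* at a log2 fold change of 4.22 with a standard error of 1.38 (adjusted p = 0.0394, limma-voom). In *slexo1* the average was 6.76 ± 5.06 CPM (SD, n = 6), and the log2 fold change of 4.19 with a standard error of 1.37 fell short of the threshold (adjusted p = 0.0555, limma-voom). edgeR's quasi-likelihood test and DESeq2 called it there (adjusted p = 0.0142 and 0.00998), and limma-voom did so without *slscz-hr12* library 2 (0.0438), *slexo1-hr7* library 3 (0.0154) or *slexo1-hr6* library 3 (0.0491). These fitted changes depend on how the value of 0 is handled. Without wild-type library 3, the log2 fold change in *slscz* was 2.24 (adjusted p = 0.324), without library 2 it was 5.10 (0.116) and without library 4 it was 4.66 (0.0954). The call was also lost without *slscz-hr12* library 3 (adjusted p = 0.0515). In pooled counts over pooled library totals, which weigh every read alike, the ratio to wild type was 10.2 in *slscz* (95% counting interval 5.21 to 22.7) and 12.3 in *slexo1* (6.36 to 27.3). Counting intervals cover counting error only and leave out the spread between libraries.

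*SlCYP86A1* was nearly undetected in wild type. In Arabidopsis, CYP86A1 hydroxylates the end of long-chain fatty acids in the root. The *slscz-hr12* libraries had 0.543, 0.814 and 2.09 CPM and the *slscz-hr5* libraries 0.384, 0.355 and 0.738 CPM. The *slexo1-hr7* libraries had 0, 0.798 and 2.79 CPM, and the *slexo1-hr6* libraries 5.22, 4.95 and 1.65 CPM. Among the wild-type libraries, library 3 held 1 count (0.119 CPM), and the other 2 held none. All 6 *slscz* libraries were above wild type, from 1 to 10 counts each, as were 5 of the 6 *slexo1* libraries.

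*SlCYP86A1* averaged 0.820 ± 0.647 CPM in *slscz* (SD, n = 6), 2.57 ± 2.16 CPM in *slexo1* (SD, n = 6) and 0.0398 ± 0.0689 CPM in wild type (SD, n = 3). Neither genotype passed the threshold in limma-voom, with log2 fold changes of 2.48 in *slscz* (standard error 1.45, adjusted p = 0.263) and 3.48 in *slexo1* (standard error 1.38, adjusted p = 0.117). Without a filter on low counts, limma-voom called it in *slexo1* (adjusted p = 0.0230), and so did edgeR (0.0105) and DESeq2 (0.00283), and limma-voom when *slexo1-hr7* library 2 was left out (0.0189). In *slscz*, the unfiltered fit, edgeR and DESeq2 did not call it (adjusted p = 0.122, 0.111 and 0.0541). The pooled ratio to wild type was 14 in *slscz* (counting interval 2.26 to 577) and 44.0 in *slexo1* (7.67 to 1758), both against a single wild-type count.

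Counted over enzymes, 1 of the 3 tested enzymes was called in each genotype, *SlASFT* in *slscz* and *SlGPAT4* in *slexo1*, both higher. The shares of all tested genes were 6.84% and 3.89%. Of all 6 enzymes, 3 lay above wild type in every *slscz* library (9.3% of all tested genes) and 1, *SlGPAT4*, in every *slexo1* library (7.18%), where the shares are over genes that passed the filter. For *SlCYP86A1* the separation in *slscz* came down to 1 and 2 counts (0.384 and 0.355 CPM) in *slscz-hr5* against 1 count in the deeper wild-type library 3. The standard errors of the enzymes, 0.63 to 1.45, were larger than the median over all genes, 0.18 in *slexo1* and 0.19 in *slscz*. The 3 wild-type libraries serve both contrasts, so the values of the mutants are not independent. *SlGPAT4* and *SlASFT* were also among the genes that the study displayed after selecting on these samples, so their direction is not independent evidence.

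**Figure D2:**
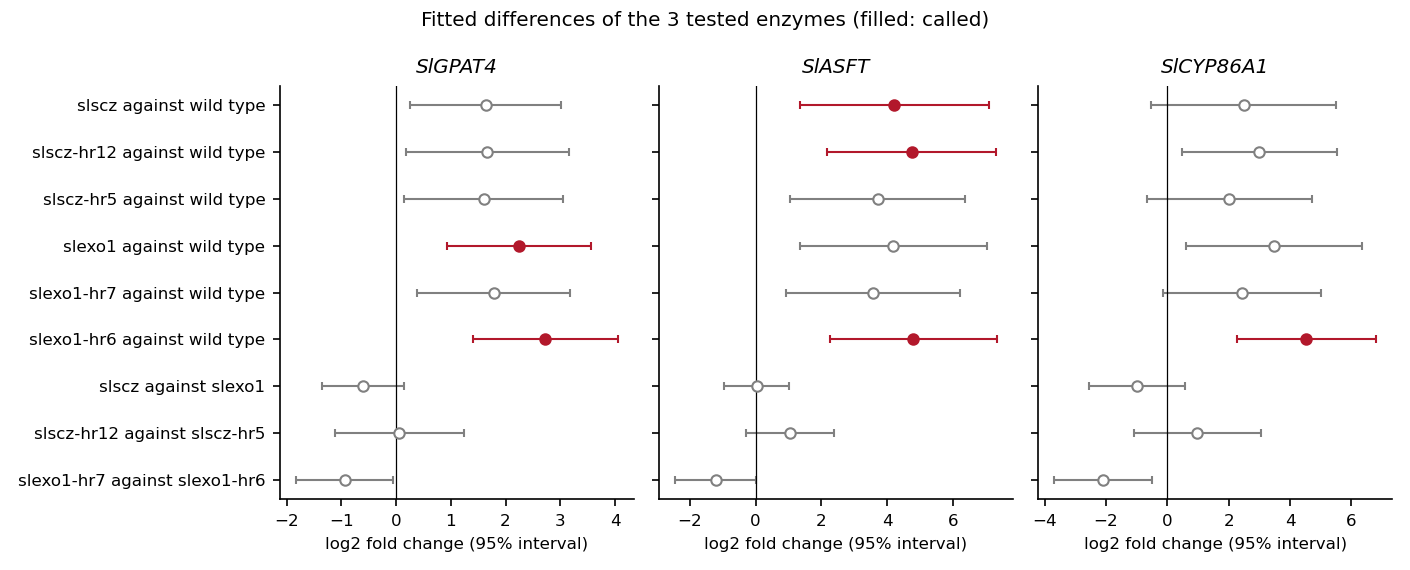
Fitted log2 fold changes of the 3 tested enzymes (points) with 95% intervals (lines) from limma-voom in 9 contrasts, each with the first-named group over the second. Filled red points were called and open grey points were not. *SlGPAT4* was called in *slexo1* at 2.25 and *SlASFT* in *slscz* at 4.22, and all 3 enzymes were called in *slexo1-hr6*.

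Line by line, limma-voom called most enzymes in *slexo1-hr6*. There all 3 were called higher than in wild type, with log2 fold changes of 2.72 for *SlGPAT4* (standard error 0.63, adjusted p = 0.0101), 4.79 for *SlASFT* (1.21, 0.0166) and 4.53 for *SlCYP86A1* (1.08, 0.0119), where 4.23% of all tested genes were called higher (limma-voom with 5 line groups). The 3 enzymes had entered the test through mutant libraries, *SlCYP86A1* in part through those of *slexo1-hr6* itself. Their number called there is therefore not independent of that selection. In *slscz-hr12* only *SlASFT* was called, at 4.75 (standard error 1.23, adjusted p = 0.0172), where the share of all genes was 4.99%. In that line edgeR called 1 and DESeq2 all 3 (adjusted p = 0.0324 for *SlGPAT4*, 0.00713 for *SlASFT* and 0.0378 for *SlCYP86A1*). None was called in *slscz-hr5* (adjusted p of 0.139 for *SlGPAT4*, 0.0620 for *SlASFT* and 0.338 for *SlCYP86A1*) or in *slexo1-hr7* (0.133, 0.112 and 0.284), where 5.42% and 1.9% of all genes were called higher. At an unadjusted p under 0.05 (limma-voom), *slscz-hr5* and *slexo1-hr7* each had 2 enzymes. At least 4091 and 2193 of the 16189 tested genes were under it there. edgeR called 0 in *slscz-hr5* and 1 in *slexo1-hr7*, DESeq2 1 and 2. For single lines, the shares of all genes that edgeR and DESeq2 called are not given here.

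Calls of single lines were lost when wild-type libraries were left out. In *slexo1-hr6*, 1 enzyme stayed called without wild-type library 2 (*SlASFT* went to an adjusted p of 0.0619 and *SlCYP86A1* to 0.0647), none without library 3 (0.125 for *SlGPAT4*, 0.165 for *SlASFT* and 0.0818 for *SlCYP86A1*) and 1 without library 4 (0.0502 for *SlASFT* and 0.0692 for *SlCYP86A1*). The log2 fold change of *SlCYP86A1* in *slexo1-hr6* was 4.53, 4.66 and 4.33 without wild-type libraries 2, 3 and 4, that of *SlASFT* 5.69, 2.83 and 5.22, and that of *SlGPAT4* 2.86, 2.22 and 2.90. In *slscz-hr12*, *SlASFT* was lost without library 2 (log2 fold change 5.64, adjusted p = 0.0568) and without library 3 (2.78, 0.173). Of the mutant libraries, *slexo1-hr6* library 2 and *slexo1-hr7* library 4 each carried *SlCYP86A1* past the filter, so that without either it was not tested, and the other mutant libraries could be left out singly without ending a call in a single line. Some calls were gained when a library of another line was left out. Without *slexo1-hr6* library 4, *SlGPAT4* was called in *slscz-hr12* (0.0341), *slscz-hr5* (0.0329) and *slexo1-hr7* (0.0276), and *SlASFT* in *slscz-hr5* (0.0438). *SlASFT* was also called in *slscz-hr5* without *slexo1-hr6* library 3 (0.0478) or *slexo1-hr7* library 4 (0.0404).

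The lines of 1 genotype were then set against each other. For all 3 tested enzymes the fitted value was lower in *slexo1-hr7* than in *slexo1-hr6*, by log2 fold changes of -0.94 for *SlGPAT4* (95% interval -1.83 to -0.05), -1.22 for *SlASFT* (-2.45 to 0.02) and -2.10 for *SlCYP86A1* (-3.68 to -0.51). None passed the adjustment over all genes (adjusted p = 0.670, 0.697 and 0.488, limma-voom), where 0.346% of all genes were called. Their libraries overlapped, because the *slexo1-hr7* ranges of 3.19 to 6.40, 1.28 to 7.71 and 0 to 2.79 CPM took in *slexo1-hr6* library 4, which had 4.29, 3.96 and 1.65 CPM of these enzymes. Without *slexo1-hr6* library 4, *SlGPAT4* was called lower in *slexo1-hr7* (log2 fold change -1.61, adjusted p = 0.0281). Between *slscz-hr12* and *slscz-hr5*, the log2 fold change was 0.06 for *SlGPAT4* (-1.12 to 1.24), 1.04 for *SlASFT* (-0.30 to 2.38) and 0.98 for *SlCYP86A1* (-1.09 to 3.05), and none was called (adjusted p = 0.999, 0.990 and 0.990, limma-voom), where 0.105% of all genes were called. *SlASFT* was higher in each *slscz-hr12* library than in any *slscz-hr5* library, which held for 4.88% of all tested genes.

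Ordered by line mean, *SlGPAT4* ran from *slexo1-hr6* (11.5 ± 6.64 CPM) through *slexo1-hr7* (5.17 ± 1.73), *slscz-hr5* (4.51 ± 1.09) and *slscz-hr12* (4.42 ± 1.78) to wild type (1.55 ± 0.514; SD, n = 3 each). Among the 4 mutant lines, neighbours in this order overlapped, and the step between *slscz-hr12* and wild type was the one without overlap. *SlASFT* ran from *slexo1-hr6* (9.38 ± 5.72 CPM) through *slscz-hr12* (8.21 ± 4.11), *slexo1-hr7* (4.14 ± 3.27) and *slscz-hr5* (3.44 ± 0.406) to wild type (0.870 ± 1.13). *SlCYP86A1* ran from *slexo1-hr6* (3.94 ± 1.99 CPM) through *slexo1-hr7* (1.20 ± 1.44), *slscz-hr12* (1.15 ± 0.824) and *slscz-hr5* (0.492 ± 0.213) to wild type (0.0398 ± 0.0689). *slexo1-hr6* had the highest mean for each of these 3 enzymes and wild type the lowest.

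The genotypes were also compared directly. For *SlASFT* the fitted log2 fold change of *slscz* over *slexo1* was 0.03 (95% interval -0.96 to 1.02, adjusted p = 0.972, limma-voom), an interval about as wide below 0 as above it. *SlGPAT4* had -0.61 (-1.36 to 0.14, adjusted p = 0.217) and *SlCYP86A1* -1.0 (-2.56 to 0.57, adjusted p = 0.347). None of the 3 was called, whereas 23.8% of all tested genes were. None reached an unadjusted p under 0.05, where at least 5933 of the 16189 tested genes did (limma-voom). edgeR called 0 of the 3 and DESeq2 called 2, *SlGPAT4* at -0.90 (adjusted p = 0.0419) and *SlCYP86A1* at -1.62 (adjusted p = 0.0482), both lower in *slscz*. The shares of all genes that edgeR and DESeq2 called in this contrast are not given here. Without *slexo1-hr7* library 2, which held no *SlCYP86A1* count, limma-voom called *SlCYP86A1* lower as well (-1.56, adjusted p = 0.0405).

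The remaining enzymes were too sparse for the filter. *SlGPAT5*, whose Arabidopsis counterpart is the acyltransferase that commits fatty acids to root and seed coat suberin, had 5, 2 and 1 counts in *slscz-hr12*, 0, 1 and 3 in *slscz-hr5*, 1, 6 and 6 in *slexo1-hr7*, 9, 5 and 3 in *slexo1-hr6* and 3, 0 and 2 in wild type. Of the mutant libraries, 1 of 6 in *slscz* and 4 of 6 in *slexo1* exceeded the highest wild-type level of 0.921 CPM. The pooled ratio to wild type was 1.53 in *slscz* (counting interval 0.500 to 5.53) and 3.26 in *slexo1* (1.25 to 10.8). In a fit without the filter its log2 fold changes were 0.44 and 1.42, not called (adjusted p = 0.804 and 0.332, limma-voom on 24756 genes).

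*SlFAR3A* belongs to the reductases that turn fatty acyl groups into alcohols. It had 4, 1 and 12 counts in *slscz-hr12*, 4, 3 and 6 in *slscz-hr5*, 2, 2 and 8 in *slexo1-hr7*, 3, 9 and 3 in *slexo1-hr6* and 3, 2 and 1 in wild type. The pooled ratio was 3.18 in *slscz* (1.3 to 9.34) and 2.44 in *slexo1* (0.988 to 7.24). Both genotypes overlapped with wild type, with 4 of 6 *slscz* and 2 of 6 *slexo1* libraries above it, and the unfiltered fit called neither (log2 fold change 1.16, adjusted p = 0.310 in *slscz*, and 0.72, 0.63 in *slexo1*, limma-voom).

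*SlCYP86B1*, whose Arabidopsis counterpart hydroxylates very-long-chain fatty acids, had no count in 9 of the 15 libraries. The counts were 0, 2 and 2 in *slscz-hr12*, 0, 0 and 2 in *slscz-hr5*, 0, 0 and 3 in *slexo1-hr7*, 0, 6 and 0 in *slexo1-hr6* and 1, 0 and 0 in wild type. Pooled ratios of 3.81 in *slscz* (0.463 to 175) and 4.89 in *slexo1* (0.677 to 214) had counting intervals that include 1. No difference in *SlCYP86B1* was detected, and the size of difference that these few counts could show was not computed. In direct comparison, the pooled ratio of *slscz* to *slexo1* was 0.468 for *SlGPAT5* (0.218 to 0.942), 1.3 for *SlFAR3A* (0.748 to 2.27) and 0.781 for *SlCYP86B1* (0.229 to 2.46).

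**Figure D3:**
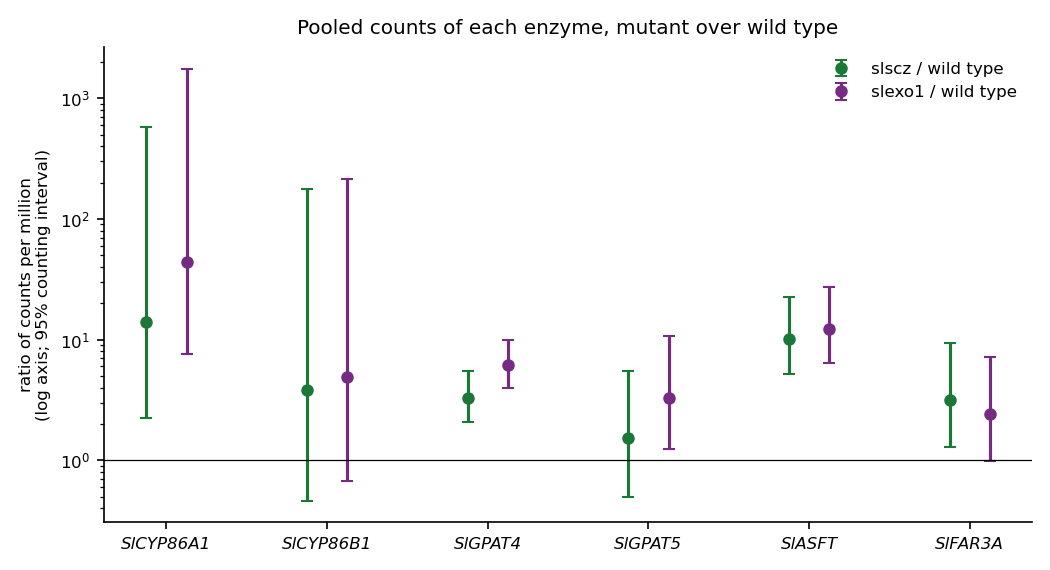
Ratio of pooled counts over library totals in *slscz* (6 libraries, green) and in *slexo1* (6 libraries, purple) to wild type (3 libraries) for each enzyme, on a log axis; lines are 95% counting intervals, which leave out the spread between libraries. The intervals of *SlCYP86B1* in both genotypes, *SlGPAT5* in *slscz* and *SlFAR3A* in *slexo1* include 1, and the width for *SlCYP86A1* reflects a single wild-type count.

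The likeness of the 3 tested enzymes was described over libraries. Over all 15 libraries, Pearson's r of log2 CPM was 0.78 between *SlGPAT4* and *SlASFT*, 0.78 between *SlGPAT4* and *SlCYP86A1* and 0.67 between *SlASFT* and *SlCYP86A1* (Spearman's rho 0.69, 0.67 and 0.75). Among the 16188 other tested genes, *SlASFT* ranked 24th and *SlCYP86A1* 25th in r with *SlGPAT4*, *SlCYP86A1* ranked 119th with *SlASFT*, and *SlASFT* 305th with *SlCYP86A1*. After each line's mean was subtracted r was 0.54, 0.37 and 0.20, and these 4 ranks became 425, 1562, 3861 and 4906. The libraries share genotype and depth, and counts are low, so these values are descriptive. In *slexo1-hr6*, libraries 2 and 3 were above and library 4 below the line's mean log2 CPM in all 3 enzymes. In *slscz-hr12* the deviations of *SlASFT* (0.72, -0.10 and -0.62 in libraries 2, 3 and 4) ran against those of *SlGPAT4* (-0.34, -0.23 and 0.57), and in *slexo1-hr7* library 2 *SlCYP86A1* lay at -1.51 and *SlGPAT4* at 0.34.

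Other genes followed the enzymes at least as closely. The 5 tested genes with the highest mean r to the 3 enzymes were Solyc08g078030 (0.83), Solyc03g020020 (0.81), Solyc01g106350 (0.79), Solyc09g065420 (0.78) and Solyc06g082240 (0.78), over 15 libraries. The table does not pair identifiers with names. Of these, Solyc01g106350 was called higher in *slexo1* (log2 fold change 1.08, adjusted p = 0.0267) and Solyc06g082240 in *slscz* (3.20, adjusted p = 0.0416, limma-voom). Solyc06g082240 had 0 to 1 counts in wild-type libraries and 1 to 11 in *slscz* libraries. The genes were picked for likeness to the enzymes in these same libraries, so their direction is not independent evidence.

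**Figure D4:**
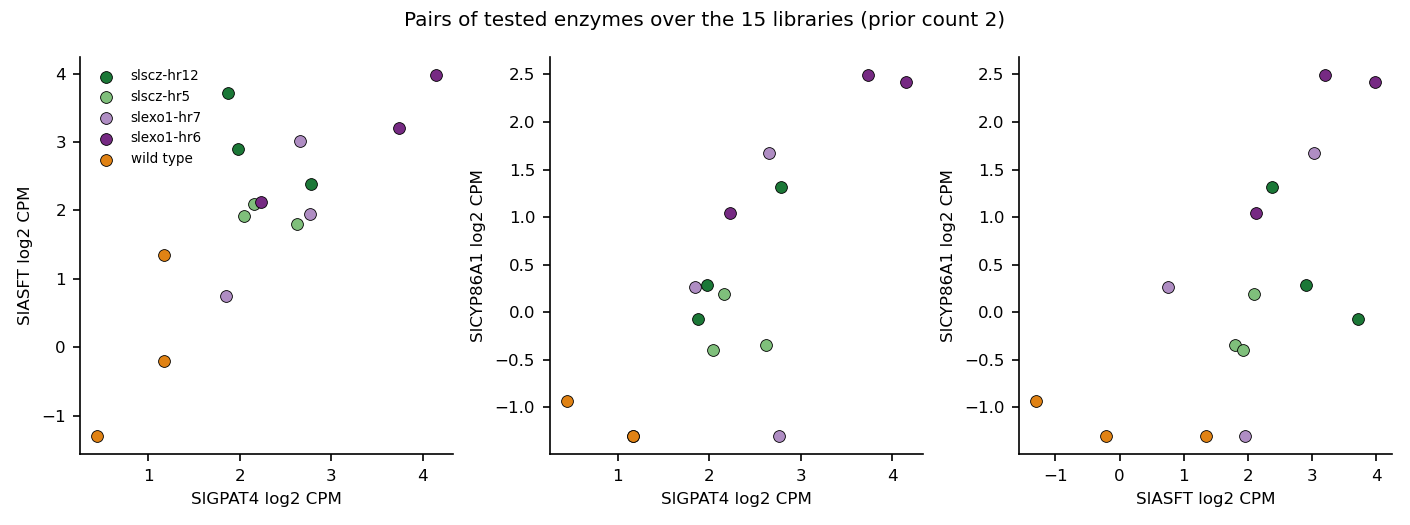
Level of 1 tested enzyme against another in log2 CPM (prior count 2), with 1 point for each of the 15 libraries, coloured by line. Wild-type libraries lie toward the lower left and *slexo1-hr6* libraries 2 and 3 at the upper right of each panel. Pearson's r is 0.78, 0.78 and 0.67 from left to right.

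Regulators of the screen and genes of the endodermal barrier were followed in the same fits. Of 20 transcription factors that the study had screened, 19 were in the table and 15 were tested. In *slscz*, 2 were called higher and 5 lower, against 6.84% and 8.37% of all tested genes, and in *slexo1* 2 higher and 3 lower, against 3.89% and 4.95%. Their median log2 fold change was -0.07 in *slscz* and -0.04 in *slexo1*. *SlSHN1*, an AP2-type factor, was higher in *slscz* (log2 fold change 0.99, adjusted p = 0.0258) and in *slexo1* (1.21, adjusted p = 0.00960, limma-voom). *SlATHB-5* was higher in *slscz* (2.68, adjusted p = 0.0217).

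Other factors were lower or differed between the genotypes. *SlMYB13* (Solyc03g093890) was lower in *slscz* (-1.98, adjusted p = 9.93e-06), as were *SlMYB68* (-0.54), *SlMGP* (-1.03) and *SlWRK31* (-0.63). *SlNAC041* was lower in *slscz* (-0.53, adjusted p = 0.00144) and higher in *slexo1* (0.44, adjusted p = 0.00749), and the direct contrast of *slscz* with *slexo1* called it lower in *slscz* (-0.96, adjusted p = 4.98e-08). In *slexo1*, *SlNUC* (-2.45), *SlMYB54* (-1.07) and *SlWRK31* (-0.41) were lower, all called. In the direct contrast, *SlNUC* (2.16) and *SlMYB54* (1.29) were higher in *slscz*, and *SlMYB13*, *SlMYB68* and *SlMGP* lower.

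Of 9 genes of the endodermal barrier, 8 were in the table and 7 were tested, with 2 called lower and none higher in each genotype, where 8.37% of all tested genes were called lower in *slscz* and 4.95% in *slexo1*. They were the MYB36 homologues *SlMYB36* (-0.71) and *SlMYB36-b* (-0.75) in *slscz*, and the CASP homologues *SlCASP1* (-0.98) and *SlCASP3* (-0.74) in *slexo1*. The study found the Casparian strip missing from mutants of *SlMYB36* and present in those of *SlMYB36-b*. It saw the SlCASP1 reporter protein at the strip, and not that of SlCASP3. Between the genotypes, *SlCASP1* (0.92) and *SlCASP3* (0.95) were called higher and *SlMYB36* (-0.56) and *SlMYB36-b* (-0.63) lower in *slscz*.

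The 5 endodermal markers were *SlCASP1*, *SlCASP2*, *SlCASP3*, *SlMYB36* and *SlSGN3*. Their summed level was 94.7 to 137 CPM in *slscz* and 63.3 to 98.1 CPM in *slexo1*, against 106 to 128 CPM in wild type. *SlCASP3* was the largest part of it, averaging 64.6 CPM in *slscz*, 33.3 CPM in *slexo1* and 53.4 CPM in wild type. In the study's reporters, *SlCASP3* and *SlSGN3* were also expressed in cortex and exodermis. *SlCASP1*, mainly endodermal, had some expression there as well. *SlMYB36* was called lower in *slscz* (-0.71), where no other of these markers was called. The sum of 4 exodermal markers was mostly *SlNAC041*, which averaged 68.5 CPM in *slscz* and 135 CPM in *slexo1*, against 99.5 CPM in wild type, and *SlMYB107-a* had between 0 and 2 counts per library. That sum was 63.0 to 88.7 CPM in *slscz* and 130 to 158 CPM in *slexo1*, against 101 to 108 CPM in wild type. Its direction was that of *SlNAC041*, while *SlSHN1* was called higher in both genotypes and *SlMYB107-b* was not called in either (log2 fold change 0.14 in *slscz* and -0.30 in *slexo1*). The part of these marker levels in the enzyme results was not tested.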

How the data were processed

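RNA was profiled by QuantSeq, which reads the 3′ ends of transcripts, in 15 libraries of tomato hairy root tips. The authors trimmed the reads, pseudo-aligned them to ITAG cDNA with kallisto (version 0.46.2 in the submitters' processing notes) and deposited estimated counts per gene, not normalized. These were rounded. The 3 wild-type columns are numbered differently from the labels and were used as a group only. The labels do not say whether libraries are separate cultures, so p-values measure the spread between these libraries.

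Counts were analysed in R 4.3.3 with limma 3.58.1 (voom, lmFit, eBayes) after TMM scaling and filterByExpr of edgeR 4.0.16 (minimum count 10, minimum total 15). One model had 3 genotype groups, another 5 line groups. The first took all libraries of a mutant genotype as replicates, although 3 at a time came from the same hairy root line. Its p-values therefore do not measure the spread between independent lines. Pooled ratios carry exact counting intervals. DESeq2 1.42.0, edgeR's quasi-likelihood test, other scalings, filters and thresholds, replicate blocks and fits without each library were alternatives. The procedure was tested on simulated data, with changes planted only in genes above a minimum mean count and no differences between lines. That test does not cover counts as low as those of *SlCYP86A1*. The enzymes, lists and tests were chosen with earlier results of these data known. Named genes were all 6 enzymes, the edited genes, listed genes called in a genotype contrast and the 5 genes most alike. None of the identifiers matched the reference table of gene names, so a list by enzyme annotation was not analysed here, nor were *SlCIF1* and a further *SlMYB13* (Solyc08g008480).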

Additional observations from a re-analysis of the deposited data

Results flagged for a closer look

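In 12 sets of 6 libraries (6 enzymes in each mutant genotype), the gap between the highest or lowest library and its neighbour was compared with the whole range of the set. It exceeded the 95% critical value of Dixon's test in 2 sets, where chance gives about 5% of sets if values are normally distributed. Both sets held low counts and joined 2 lines, so the 5% rate need not hold here. *SlCYP86A1* in *slscz* had a ratio of 0.735, because *slscz-hr12* library 4 stood at 2.09 CPM and the next library at 0.814 CPM. *SlCYP86B1* in *slexo1* had a ratio of 0.669, from *slexo1-hr6* library 3 at 1.49 CPM (6 counts) and the next library at 0.492 CPM (3 counts).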

How the results depend on the processing

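Each count of enzymes called was recomputed under the alternatives. In *slexo1* against wild type (main value 1), edgeR, DESeq2 and library quality weights called 3 enzymes, library size without TMM, no filter and line as a random effect called 2, and only the libraries numbered 2 and 3 called 0. In *slscz* against wild type (main value 1), edgeR, DESeq2 and a fit of the compared groups called 2, and the libraries numbered 2 and 3 and counts thinned to the smallest library called 0. Over all tested genes, edgeR called 1438 in *slexo1* (main value 1431) and 2512 in *slscz* (2463). For DESeq2 and the other alternatives above, the numbers over all genes are not given here, so their counts of enzymes lack that comparison. DESeq2 called 2 in *slscz* against *slexo1* (main value 0), 1 in *slscz-hr5* (0), 3 in *slscz-hr12* (1) and 2 in *slexo1-hr7* (0), where edgeR called 1. Without 1 library at a time, the counts ran from 0 to 2 in *slexo1*, 0 to 2 in *slscz*, 0 to 1 in *slscz* against *slexo1*, 0 to 2 in *slscz-hr12*, 0 to 2 in *slscz-hr5*, 0 to 1 in *slexo1-hr7*, 0 to 3 in *slexo1-hr6*, 0 to 1 in *slexo1-hr7* against *slexo1-hr6* and stayed at 0 in *slscz-hr12* against *slscz-hr5*. Without wild-type library 3, calls over all genes numbered 738 in *slexo1* (main value 1431) and 1438 in *slscz* (2463), and without libraries 2 and 4, 943 and 895 in *slexo1*. In all, 167 of 208 recomputed counts stayed within 1.5 times the main value. *SlCYP86A1* did not pass the filter, and has no value, in 1 or more contrasts of 5 alternatives, among them the thinned counts and the fits without *slexo1-hr6* library 2 or *slexo1-hr7* library 4. The causes were not tested.

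The direction reversed only for uncalled values near 0. *SlASFT* in *slscz* against *slexo1* (main value 0.03) was -0.20 in edgeR, -0.22 in DESeq2, -0.060 without TMM and -0.42 to 0.28 without single libraries, and *SlGPAT4* in *slscz-hr12* against *slscz-hr5* (0.06) was -0.29 to 0.24 without single libraries and -0.016 with the replicate block. No enzyme that was tested against wild type changed direction under any alternative run.

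The replicate numbers were not taken to pair the libraries, since not every same-numbered pair correlated over 0.1 in its deviations from line means. That rule cannot show whether libraries of like number were handled together. *SlCYP86A1* was highest in library 4 of *slscz-hr12* (2.09 CPM), *slscz-hr5* (0.738 CPM) and *slexo1-hr7* (2.79 CPM), and lowest in library 4 of *slexo1-hr6* (1.65 CPM). The part of the library number in the enzyme levels was not tested. Among mutant libraries, same-numbered pairs correlated at -0.056 to 0.415 (mean 0.109, over 0.1 in 9 of 18, including all 6 pairs of libraries numbered 4), and pairs of unlike number at a mean of -0.055 (over 0.1 in 2 of 36). With wild type, 0 of 12 same-numbered pairs were over 0.1. With the replicate block, 1 enzyme was called in *slexo1* (*SlGPAT4* 2.18, adjusted p = 0.0242), 1 in *slscz* (*SlASFT* 3.61, 0.0476), 3 in *slexo1-hr6*, 1 in *slscz-hr12* and 0 in the other contrasts, as without it (limma-voom). The block of the 12 mutant libraries alone also called 0 in *slscz* against *slexo1*. The depth limits *SlGPAT5*, *SlFAR3A* and *SlCYP86B1*, with at most 12 counts in any library.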
